A study of Mus musculus with 40 samples.

Results

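The hearts of 2 groups of male C57BL/6J offspring were compared whose diet was switched at weaning in opposite directions. LF_HF offspring were born from LF fed dams and fed the HF diet after weaning (10 hearts from 4 cages). HF_LF offspring were born from HF fed dams and fed the LF diet after weaning (10 hearts from 5 cages). LF stands for a low-fat high-carbohydrate diet and HF for a high-fat low-carbohydrate diet, the dam's diet is written first, and no group carried a transgene or received a drug. These 20 hearts were chosen by the diets in the labels, out of the 40 hearts of the series, and the other 20 came from offspring that stayed on the diet of their dam (10 HF_HF and 10 LF_LF). A cage held the pups of up to a pair of dams, 2 cages gave both LF_HF and LF_LF hearts, 3 cages gave both HF_LF and HF_HF hearts, and all offspring were killed as young adults after a fast. The comparison sets a high-fat diet after weaning against a high-fat diet before weaning. It therefore holds 2 contrasts at once, the post-weaning diet and the opposite of the maternal diet, and cannot by itself tell them apart.

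Total RNA was hybridised to 1 array per heart. Transcript levels are given as intensities, the brightness of a probe on a linear scale after the normalization made by the authors, on which the median probe of an array had 79.3. Differences are on the log2 scale, LF_HF minus HF_LF, and an adjusted p is the false discovery rate of limma over the 12645 probes tested, which represented 8749 named genes. The label of the tissue held up against its markers. The cardiomyocyte genes Myh6 and Actc1 had intensities of 18714 to 26402 and 23945 to 31454 over the 40 hearts. Some hearts also carried transcripts of other tissues. A marker score for liver, pancreas, skeletal muscle or adipose tissue exceeded 1.5 log2 units over the median heart in 3 LF_HF and 5 HF_LF hearts. The dimmest probes separated the arrays into 2 sets, the larger with 7 LF_HF and 7 HF_LF hearts and the smaller with 3 and 3. Neither set is named in the labels.

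A working heart burns mostly fatty acids. Long-chain acids enter mitochondria through the carnitine shuttle and are broken down by beta-oxidation, and fatty acids themselves activate the nuclear receptor PPAR alpha, which raises the transcription of these enzymes and of Pdk4, a kinase that shuts pyruvate out of the citrate cycle. The heart also keeps a circadian clock, in which Clock and Arntl (Bmal1) drive Per and Cry genes that in turn repress them, and it responds to glucocorticoids, adrenal hormones that follow a daily rhythm and rise with fasting and stress.

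The 2 groups of offspring differed in body size in opposite directions before and after the switch. At 3 weeks LF_HF offspring weighed 7.82, 9.08 and 11.1 g (lowest, median and highest), against 9.71, 11 and 11.96 g in HF_LF offspring. LF_HF offspring averaged 9.18 ± 1.00 g and HF_LF offspring 10.9 ± 0.836 g (SD, n = 10 each). Of the LF_HF offspring 9 of 10 were below the HF_LF median, and the difference was -1.75 g (adjusted p = 0.00139, two-sided permutation test). The later weight, which the labels call a weaning weight although it was 20.4 g or more in every animal, was 30.3 ± 1.86 g in LF_HF and 23.7 ± 1.81 g in HF_LF offspring (n = 10 each). All 10 LF_HF animals were heavier than every HF_LF animal, and the difference was 6.59 g (adjusted p = 0.00024, permutation test). LF_HF offspring were also longer, at 102.3 ± 2.11 mm against 98 ± 2.06 mm in HF_LF offspring (adjusted p = 0.00044, permutation test, n = 10 each). Fasting glucose was 221.8 ± 29.3 mg/dl in LF_HF and 194 ± 24.1 mg/dl in HF_LF offspring, with 8 of 10 LF_HF animals above the HF_LF median (difference 27.8 mg/dl, adjusted p = 0.0319, permutation test). Over cage means (4 against 5 cages) the exact permutation test gave an adjusted p of 0.0423 for each of the 3 measures of size and of 0.0952 for glucose, where the smallest unadjusted p such a design allows is 0.0159.

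Transcript levels differed widely between the LF_HF and HF_LF hearts, but by small amounts. At a false discovery rate of 5%, 650 probes were higher and 694 lower in LF_HF than in HF_LF hearts, 10.6% of all tested probes (5.14% higher and 5.49% lower). The median size of these differences was 0.24 on the log2 scale each way, 41 higher and 57 lower probes differed by more than 0.5, and 4 higher and 3 lower probes by more than 1. Counting each gene by its brightest tested probe, 1013 genes passed (11.6%), 483 higher (5.52%) and 530 lower (6.06%). For 51 probes (0.403% of those tested) the intensities of the LF_HF and HF_LF hearts did not overlap at all. The smallest p belonged to Scn4b, and the probes with the largest differences were those of Tfrc, which rose, and Hamp, which fell, in LF_HF hearts. The median over all tested probes differed by 0.00138, after the quantile normalization. The groups spanned few cages, and leaving out the 3 LF_HF hearts of cage 11 left 234 higher and 250 lower probes, while means of the cages left 131 and 168.

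**Figure D1:**
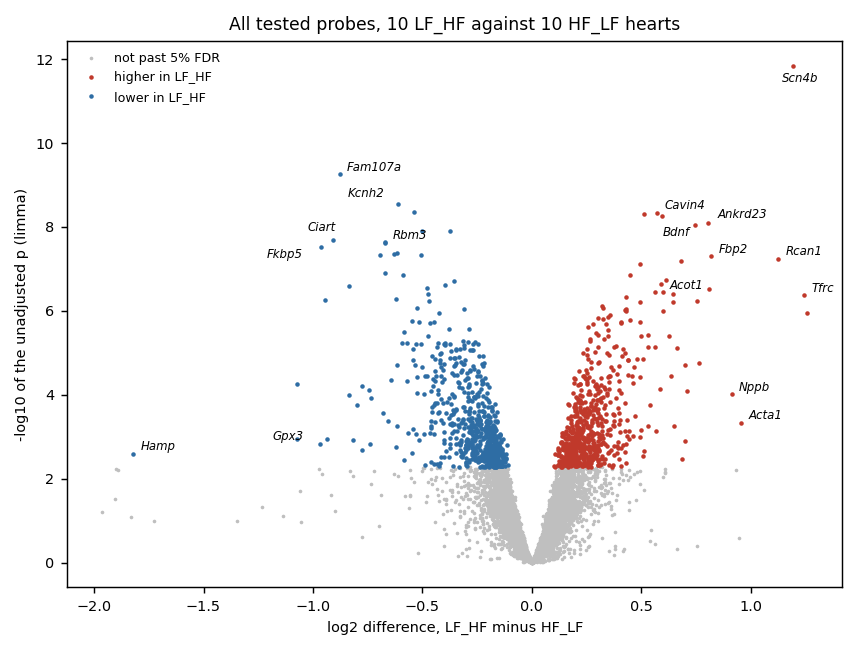
Every tested probe by its log2 difference, LF_HF minus HF_LF (x axis), and the -log10 of its unadjusted limma p (y axis), with 10 hearts a group. Red points passed a false discovery rate of 5% as higher in LF_HF hearts (650 probes) and blue points as lower (694). Scn4b stands alone at the top, and Hamp has the largest fall among the probes that passed.

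Genes of fatty acid use rose in LF_HF hearts. Of 23 tested genes of fatty acid oxidation, 14 were higher and 0 lower, against 5.52% and 6.06% of all genes, and the median difference of the list was 0.28. The higher genes act at several steps. Cpt1b and Cpt2 build and unload the carnitine esters, Slc25a20 carries them across the inner mitochondrial membrane, Acadvl, Acadm, Hadh and Hadhb act in the oxidation spiral, Eci1 and Eci2 shift double bonds, and Etfdh passes the electrons on. Cpt1b, the muscle form of the rate-limiting carnitine palmitoyltransferase, had intensities of 4661, 5187 and 5658 in LF_HF hearts, against 3379, 4115 and 4603 in HF_LF hearts. The groups did not overlap, and the difference was 0.35 ± 0.06 (SE, adjusted p = 0.000623, limma). Hadh showed the largest rise of the list (0.63 ± 0.10, adjusted p = 0.000623), with a second probe at 0.24. Cpt2, chosen after its values were seen, differed by 0.35 (adjusted p = 0.00234). Decr1 (0.38, adjusted p = 0.147) and Acadl (0.30, adjusted p = 0.0559) did not pass, nor did the thiolase gene Acaa2 (0.20, adjusted p = 0.072), the electron transfer flavoprotein genes Etfa (0.09, adjusted p = 0.283) and Etfb (0.08, adjusted p = 0.496) or the hydratase gene Echs1 (-0.0065, adjusted p = 0.963).

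Among 19 tested PPAR alpha targets, several of which are also on the oxidation list, 11 were higher and 0 lower. That was 57.9% called beside 11.6% of all genes, with a list median of 0.20. The strongest was Acot1, a thioesterase that frees fatty acids from coenzyme A and a sensitive PPAR alpha target in mouse. Its brighter probe read 1649.8, 2069 and 2578 in LF_HF hearts, against 794, 1186 and 1636 in HF_LF hearts, so that the lowest LF_HF heart lay just above the highest HF_LF heart (difference 0.75 ± 0.11, adjusted p = 0.000173). Pdk4 read 5158, 6134 and 9009.7 in LF_HF hearts, against 2609, 4294 and 5268 in HF_LF hearts. Only the ends of the ranges touched, and the difference was 0.64 ± 0.12 (adjusted p = 0.00229). Angptl4, a secreted inhibitor of lipoprotein lipase, differed by 0.71 (adjusted p = 0.00396), Plin2, a lipid droplet coat protein, by 0.36 (adjusted p = 0.0149), and the fatty acid transporter Cd36 by 0.30. Related genes did not all rise. Plin4, another droplet coat protein, fell by 0.62 (adjusted p = 3.1e-05), with 1329 to 2117 in LF_HF hearts and 2126 to 3119.7 in HF_LF hearts. The uncoupling protein gene Ucp3 differed by 0.11 (adjusted p = 0.592). The mRNA of the receptor itself, Ppara, differed by 0.02 (adjusted p = 0.852) and that of its coactivator Ppargc1a by -0.06 (adjusted p = 0.692).

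Other fuel genes changed singly. Fbp2, the muscle fructose bisphosphatase, read 879, 996 and 1309.8 in LF_HF hearts, against 388, 587 and 792 in HF_LF hearts, with no overlap (difference 0.82 ± 0.10, adjusted p = 3.15e-05). Ephx2, the soluble epoxide hydrolase that opens fatty acid epoxides, also separated the groups, with 1301 to 1923 in LF_HF and 800.1 to 1244 in HF_LF hearts (0.59 ± 0.08, adjusted p = 9.78e-05). The glucose transporter Slc2a1 fell by 0.45 (adjusted p = 0.000367), and Pfkfb2, which makes the activator of phosphofructokinase, rose by 0.32 (adjusted p = 0.00504). In all, 2 of 20 tested glycolysis and glucose uptake genes were higher and 1 lower (list median 0.04), 15% called beside 11.6% of all genes. Of 19 citrate cycle genes 4 were higher and 0 lower (Cs, Dlst, Sucla2 and Sdhd, list median 0.06), 21.1% called beside 11.6% of all genes. Of 69 respiratory chain genes 8 were higher and 0 lower (list median 0.05), 11.6% called, the same share as over all genes. None of 11 tested genes of fatty acid synthesis passed. Scd1, a desaturase that is abundant in fat and liver, read 356, 625 and 2222 in LF_HF hearts, against 412, 1164 and 17626 in HF_LF hearts (difference -1.06, adjusted p = 0.305). Of the 14 oxidation genes, 9 passed without the hearts that carried another tissue, 8 over cage means and 6 after adjusting for the atrial score described below, and all 14 kept their sign in each. Of the 11 PPAR alpha targets that passed, 10, 5 and 6 did so in turn.

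**Figure D2:**
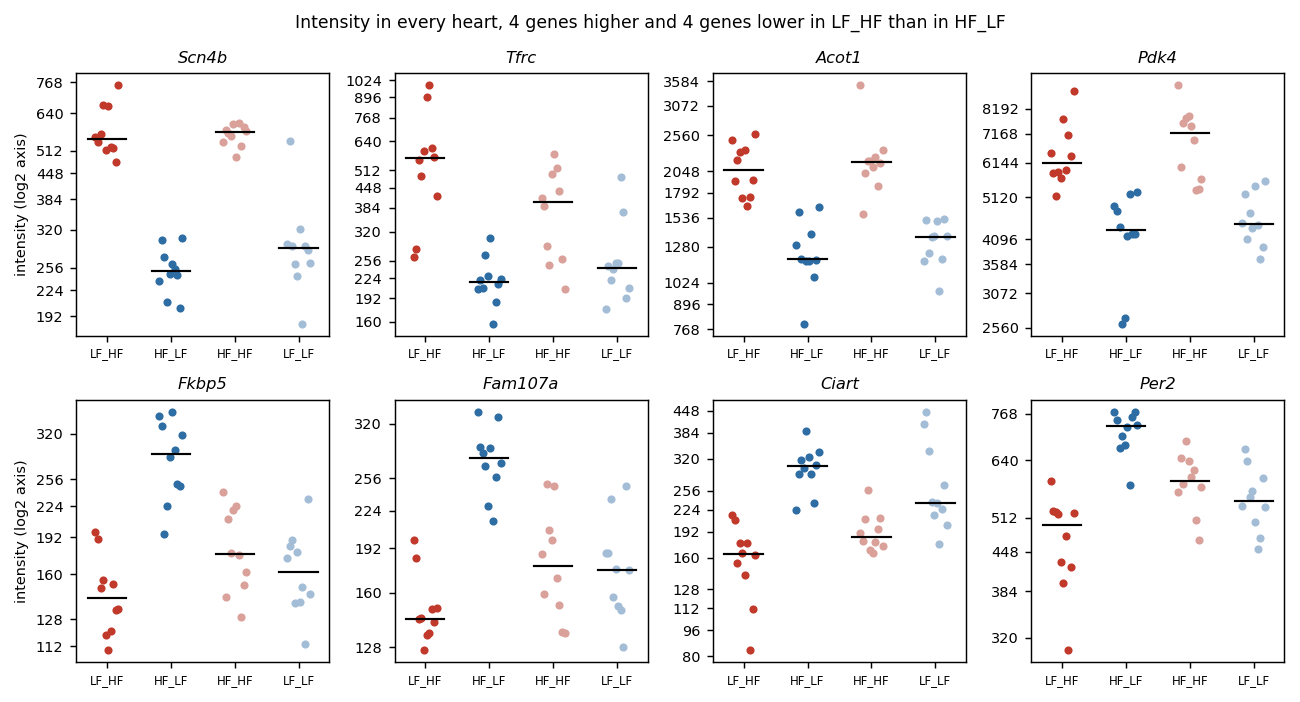
Intensity (log2 axis) of 8 genes in every heart, one panel a gene and one point a heart, with the median of each group as a line, for LF_HF, HF_LF, HF_HF and LF_LF. Scn4b, Acot1 and Pdk4 lay higher in the HF fed LF_HF and HF_HF hearts than in most LF fed hearts, while Fkbp5 and Fam107a were highest in HF_LF hearts and lowest in LF_HF hearts.

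The sodium channel subunit gene Scn4b gave the clearest single difference. Its product is the beta-4 subunit, which shapes resurgent sodium current. Scn4b read 479, 548 and 755 in LF_HF hearts, against 201, 250.2 and 305 in HF_LF hearts. The LF_HF hearts lay far above the HF_LF hearts, with a 2.29-fold difference (log2 1.19 ± 0.09 SE, adjusted p = 1.8e-08, limma). It kept passing over cage means (adjusted p = 1.73e-06). Of 21 tested ion channel genes of the action potential, 4 were higher and 3 lower (list median 0.02), 33.3% called beside 11.6% of all genes. The other higher genes were the potassium channels Kcna5 and Kcnj2 and the main ventricular gap junction gene Gja1. Kcna5 (0.32, adjusted p = 0.0356) and Gja1 (0.24, adjusted p = 0.0465), both chosen after their values were seen, lost their call when some single hearts were left out.

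Kcnh2, the channel of the rapid delayed rectifier current IKr, fell. It read 231, 262 and 293 in LF_HF hearts, against 359, 388 and 545 in HF_LF hearts, again without overlap (difference -0.61 ± 0.07, adjusted p = 9.78e-06). The T-type calcium channel Cacna1h read 113, 167 and 233 in LF_HF hearts, against 112, 350.4 and 628 in HF_LF hearts. Its difference was -0.94 (adjusted p = 0.0206). The 2 HF_LF hearts at the LF_HF level for Cacna1h, at 112 and 126, were those with the lowest atrial score, and with that score as a covariate the difference was -0.33 (adjusted p = 0.0843). The score itself differed between the groups (median -0.44 in LF_HF and 0.53 in HF_LF hearts). Atrial content and diet therefore cannot be told apart for this gene. Kcnj3, the acetylcholine-gated atrial channel, differed by -0.36 (adjusted p = 0.0128). It is itself one of the markers in the atrial score.

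Genes that glucocorticoids induce were mostly lower in LF_HF hearts. Of 25 tested genes of that list, 13 were lower and 1 higher, 56% called beside 11.6% of all genes. The list median was -0.26. The higher one was Pdk4, which is also a PPAR alpha target. Fkbp5, which encodes a partner of Hsp90 that restrains the glucocorticoid receptor and is itself induced by it, read 109.8, 142 and 197 in LF_HF hearts, against 195, 290.1 and 357 in HF_LF hearts. The ranges touched only at 195 to 197, and LF_HF hearts had 0.512 times the level of HF_LF hearts (log2 -0.97 ± 0.12, adjusted p = 2.49e-05). Fam107a read 126, 144 and 198 in LF_HF hearts, against 215, 278 and 336 in HF_LF hearts, with no overlap (-0.88 ± 0.09, adjusted p = 3.49e-06). The metallothionein gene Mt1, which encodes a metal-binding protein that both metals and glucocorticoids induce, read 9643, 10649 and 12709 in LF_HF hearts, against 13577, 15610.0 and 18714 in HF_LF hearts. These did not overlap either (-0.54 ± 0.06, adjusted p = 9.78e-06), and its neighbour Mt2 fell by 0.42 (adjusted p = 0.00104).

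Lower genes of the list also included Klf9 (-0.40, adjusted p = 0.000104) and Tsc22d3 (GILZ, -0.37, adjusted p = 0.00637), both chosen after their values were seen, and Sult1a1, Map3k6, Nfkbia, Mertk, Ddit4, Per1 and Cry2. Per1 and Cry2 are also counted on the clock list below. Some classical targets did not pass, among them Sgk1 (-0.14, adjusted p = 0.238) and Klf15 (0.02, adjusted p = 0.856). The list median was -0.28 within each set of arrays. Of the 14 genes, 11 passed without the hearts that carried another tissue, 11 after adjusting for the atrial score and 9 over cage means.

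Clock genes differed in both directions, with 9 of 18 tested genes lower and 4 higher in LF_HF hearts. That was 72.2% called, beside 11.6% of all genes. The lower genes were the repressor arm and its outputs (Per1, Per2, Per3, Cry2, Ciart, Dbp, Tef and Usp2) and the receptor gene Rora. The higher genes were the activators Arntl and Clock and the repressors Nfil3 and Bhlhe40. Ciart (Chrono), a repressor of the Clock and Arntl pair, read 83.6, 164 and 216 in LF_HF hearts on its brighter probe, against 223, 303 and 389.6 in HF_LF hearts. There was no overlap, on this probe (-0.94 ± 0.14, adjusted p = 0.000169) or on the other (-0.91 ± 0.11, adjusted p = 2.17e-05). Per2 read 305, 498 and 591 in LF_HF hearts, against 582, 733 and 775 in HF_LF hearts (-0.62 ± 0.09, adjusted p = 0.000164). Per1 read 369, 514 and 647 in LF_HF hearts, against 631, 733 and 1035 in HF_LF hearts (-0.58 ± 0.10, adjusted p = 0.000541). The ranges of both Per genes touched only at their ends.

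Dbp, a PAR bZIP factor and direct output of the clock, read 1043, 2651 and 3517 in LF_HF hearts, against 3015, 3990.3 and 5174 in HF_LF hearts (-0.68 ± 0.16, adjusted p = 0.00859). Arntl went the other way, at 94.4, 107 and 162 in LF_HF hearts and 73.8, 86.1 and 93.7 in HF_LF hearts. These intensities are close to the median probe of an array, yet the groups did not overlap (0.40 ± 0.08, adjusted p = 0.00269). Clock, chosen after its values were seen, rose by 0.24 (adjusted p = 0.0385), a call that was lost when some single hearts were left out. Nr1d1 (Rev-erb alpha), which represses Arntl, differed between its probes. Its brightest probe differed by 0.15 (adjusted p = 0.426) and another by 0.31 (adjusted p = 0.0175). The sources used here give no time of day at which each heart was taken. Of the 13 calls, 6 remained without the hearts that carried another tissue, 5 after adjusting for the atrial score and 4 over cage means.

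The clock pair binds the E-box CACGTG, and Dbp and Tef bind the D-box TTATGTAA, so the promoters of 3 of these genes are shown, chosen after their values were seen because they hold such motifs. Each runs from 250 bases before to 50 bases after the gene's start in RefSeq (GRCm38.p6), 5′ to 3′ on the strand of the gene, with the motif in capitals. The first is Ciart at chr3:95882179-95882478 on the minus strand, with 3 E-boxes. The second is Per1 at chr11:69098699-69098998 on the plus strand, with 1 E-box. The last is Per3 at chr4:151044616-151044915 on the minus strand, with 2 D-boxes.
Ciart: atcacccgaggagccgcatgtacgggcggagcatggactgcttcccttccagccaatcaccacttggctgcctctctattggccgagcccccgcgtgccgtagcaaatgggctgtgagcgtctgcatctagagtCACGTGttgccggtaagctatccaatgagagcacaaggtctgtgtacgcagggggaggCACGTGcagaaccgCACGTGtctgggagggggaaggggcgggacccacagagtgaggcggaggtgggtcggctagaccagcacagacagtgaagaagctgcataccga
Per1: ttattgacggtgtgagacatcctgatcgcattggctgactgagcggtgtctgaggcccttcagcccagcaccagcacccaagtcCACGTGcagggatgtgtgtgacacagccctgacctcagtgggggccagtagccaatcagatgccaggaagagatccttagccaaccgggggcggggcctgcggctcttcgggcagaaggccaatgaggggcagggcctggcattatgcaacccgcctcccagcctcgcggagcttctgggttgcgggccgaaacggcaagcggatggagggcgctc
Per3: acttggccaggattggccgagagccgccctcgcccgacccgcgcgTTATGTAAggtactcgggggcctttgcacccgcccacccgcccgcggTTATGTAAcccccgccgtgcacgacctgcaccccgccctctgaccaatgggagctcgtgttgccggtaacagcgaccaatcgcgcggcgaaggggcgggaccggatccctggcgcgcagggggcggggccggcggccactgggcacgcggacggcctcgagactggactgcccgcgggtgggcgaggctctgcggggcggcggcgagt

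The E-boxes of Ciart began 116, 58 and 44 bases before its start, that of Per1 began 166 bases before, and the D-boxes of Per3 began 205 and 158 bases before. Per3, chosen after its values were seen, read 89.1, 116 and 142 in LF_HF hearts, against 123, 139 and 156 in HF_LF hearts (-0.28 ± 0.06, adjusted p = 0.00548). Of the 13 clock genes that passed, 11 had a promoter in the table. An E-box was found in 3 of them (Ciart, Per1 and Tef), in 4 of their 16 promoters, against 7.15% of 32851 promoters. A D-box was found in 1 of the 16 promoters, against 0.938% of all. Motifs were searched on both strands, and no match of one overlapped a match of the other in the promoters shown. The glucocorticoid half-site AGAACA was found in 4 of 19 promoters of the glucocorticoid-responsive genes that passed, against 19% of all promoters. The PPAR direct repeat (DR1, a doubled AGGTCA with 1 base between) was found in 0 of 12 promoters of the oxidation genes, against 0.0396% of all. These matches describe the windows and do not show binding.

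Heat shock genes were higher in LF_HF hearts, with a list median of 0.23. Of 18 tested genes 10 were higher and 0 lower, 55.6% called beside 11.6% of all genes. The higher genes spanned several classes of chaperone. Hsph1, a nucleotide exchange factor of Hsp70, read 552, 775 and 993 in LF_HF hearts, against 366, 515 and 590.1 in HF_LF hearts, and the ranges overlapped only between 552 and 590.1 (0.65 ± 0.09, adjusted p = 0.000138). The Hsp40 protein Dnajb4 rose by 0.53, the mitochondrial chaperonin pair Hspe1 and Hspd1 by 0.44 and 0.32, Hsp90aa1 by 0.43, and the small heat shock protein Hspb1 by 0.44 (adjusted p = 0.00135). Fkbp4, another co-chaperone of steroid receptors that acts opposite to Fkbp5 there, rose by 0.25 (adjusted p = 0.00255). Hspa1a, the stress-inducible Hsp70, differed by 0.11 and did not pass, nor did Hspa8 (0.12) or Hspa4 (0.20).

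Of the 9 tested genes of a list that joins cold-inducible RNA binding proteins with splicing factors, 4 were lower and 0 higher. That was 44.4% called, beside 11.6% of all genes. The lower genes were Rbm3 and Cirbp, which cold induces, and Srsf5 and Ddx5, which act in splicing. Rbm3 read 312, 417 and 509.9 in LF_HF hearts, against 541, 656 and 814 in HF_LF hearts. Its groups did not overlap (-0.67 ± 0.08, adjusted p = 2.19e-05), while a dimmer probe of the gene differed by 0.05 (adjusted p = 0.768). Cirbp fell by 0.38 (adjusted p = 0.0104) and the splicing factor Srsf5 by 0.53 (adjusted p = 0.00155). Of the 10 heat shock calls 4 remained without the hearts that carried another tissue, 4 after adjusting for the atrial score and 3 over cage means. Of the 4 calls of the list of cold-inducible and splicing genes 2, 3 and 2 remained in turn.

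Of 27 tested genes of the sarcomere and of hypertrophy, 4 were higher and 1 lower (18.5% called, beside 11.6% of all genes), with a list median of -0.01. Acta1, skeletal actin, which the stressed ventricle re-expresses, read 3125, 5912 and 8568 in LF_HF hearts, against 1452, 3106 and 5112 in HF_LF hearts. The difference was 0.96 ± 0.23 (adjusted p = 0.012). Nppb, which encodes the natriuretic peptide BNP, read 1333, 3372 and 4404 in LF_HF hearts, against 1046, 1398 and 2462 in HF_LF hearts (0.91 ± 0.19, adjusted p = 0.00442). For both genes the groups overlapped, and neither passed without the hearts that carried another tissue (0.90, adjusted p = 0.062 and 0.79, adjusted p = 0.0765). Rcan1, an inhibitor of calcineurin and a target of its signal, rose on both probes. The brighter read 659, 935 and 1065 in LF_HF hearts, against 490.5, 599.8 and 719.5 in HF_LF hearts (0.56 ± 0.08, adjusted p = 0.000131), and the dimmer differed by 1.13 (adjusted p = 3.45e-05).

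Tcap (telethonin), which anchors titin at the Z-disc, fell. It read 6054, 9052 and 12249 in LF_HF hearts, against 12980.0, 14172 and 16373 in HF_LF hearts, without overlap (-0.67 ± 0.09, adjusted p = 6.62e-05). The stretch-responsive Ankrd23 read 988, 1418 and 1614 in LF_HF hearts, against 559.6, 787 and 944 in HF_LF hearts (0.81 ± 0.09, adjusted p = 1.27e-05), and Cavin4, a caveolar protein of muscle, rose by 0.57 (adjusted p = 9.78e-06). The beta myosin gene Myh7, whose rise marks hypertrophy in mouse, differed by -0.05 (adjusted p = 0.741). The slow troponin gene Tnnt1 fell by 0.48 (adjusted p = 0.000138).

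Iron genes held both of the extremes. Tfrc, the receptor that takes up transferrin-bound iron, read 262, 561 and 984 in LF_HF hearts, against 158, 218 and 306 in HF_LF hearts on its brighter probe. The 2 lowest LF_HF hearts lay inside the HF_LF range, and the difference was 1.26 ± 0.19 (adjusted p = 0.000264), with 1.24 on another probe. Hamp, the iron hormone hepcidin, which is made mainly in liver and also in heart, read 61.6, 171 and 1399.5 in LF_HF hearts, against 96.9, 931 and 2147 in HF_LF hearts. These ranges overlapped almost wholly. The difference of -1.82 ± 0.54 (adjusted p = 0.0328) was -1.31 (adjusted p = 0.247) once the fit held the atrial score. It also missed the threshold without some single hearts. Over the list, 3 of 17 tested genes were higher (Tfrc, Hjv and Alas1) and 2 lower (Hamp and Hamp2). That was 29.4% called, beside 11.6% of all genes.

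Vessel and signalling genes moved in both directions. Vegfa, the main angiogenic growth factor of muscle, read 2209.6, 2397 and 2778 in LF_HF hearts, against 1517, 1677 and 1966 in HF_LF hearts, with no overlap (0.51 ± 0.06, adjusted p = 9.78e-06) and a second probe at 0.31. The endothelial gene Tmem100 fell by 0.59 (adjusted p = 6.94e-05), Gdf10 by 0.84 (adjusted p = 0.000104) and Angpt1, the ligand of the Tie2 receptor, by 0.31. In this list 3 of 23 tested genes were higher and 4 lower, 30.4% called beside 11.6% of all genes. Bdnf, a neurotrophin, read 261, 328 and 393 in LF_HF hearts, against 152, 198 and 253 in HF_LF hearts, without overlap (0.75 ± 0.08, adjusted p = 1.28e-05).

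Of 19 tested chemokines and cytokines, 4 were higher and 1 lower, 26.3% called beside 11.6% of all genes. The monocyte chemokine Ccl7 read 126, 153 and 307 in LF_HF hearts, against 84.0, 99.0 and 131 in HF_LF hearts (0.77 ± 0.14, adjusted p = 0.00148), and Cxcl14 rose by 0.68 without overlap (adjusted p = 3.81e-05). The tissue macrophage receptor Cd163 fell by 0.54 (adjusted p = 0.00093). In the extracellular matrix 3 of 43 tested genes were higher and 5 lower (18.6% called, beside 11.6% of all genes). The higher ones were the collagen chaperone Serpinh1 and the prolyl hydroxylases P4ha1 and P4ha2. Other genes that act on collagen did not pass, among them Plod1 (0.13), Plod2 (-0.06), P4hb (-0.09) and Lox (-0.11). The 5 lower ones included the protease inhibitors Timp2 and Timp3. All 5 lower calls and 2 of the 3 higher ones were lost with the atrial score in the fit, and likewise without the hearts that carried another tissue. Serpinh1 remained in both. Among 26 antioxidant genes 3 were higher, including catalase (Cat, 0.35, adjusted p = 0.0153), and 4 lower, including Gpx3 and both metallothionein genes. That was 26.9% called, beside 11.6% of all genes.

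Of 25 tested interferon genes 1 was higher and 0 lower, of 54 ribosomal protein genes 0 and 3, of 29 proteasome genes 1 and 2, of 14 cholesterol synthesis genes 0 and 1, and of 15 immediate early genes 1 and 0, against 5.52% higher and 6.06% lower over all genes. Of 15 insulin signalling genes 1 was higher and 2 lower, 20% called beside 11.6% of all genes, with a list median of -0.03.

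**Figure D3:**
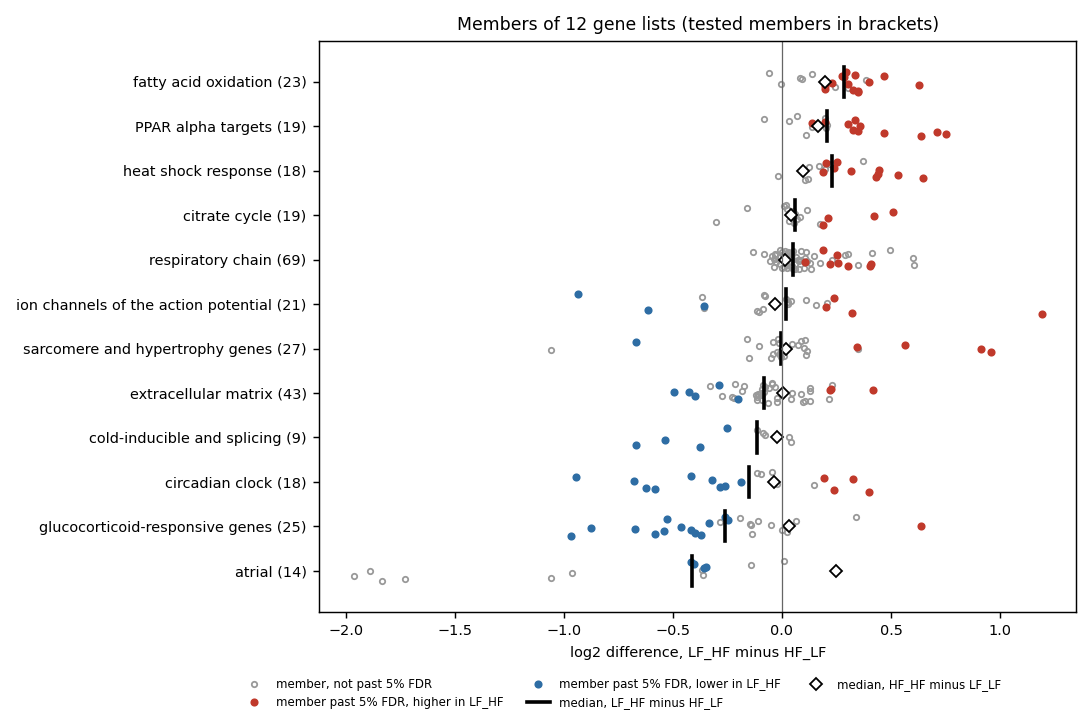
Log2 difference, LF_HF minus HF_LF (x axis), of the tested members of 12 gene lists (rows), each by its brightest probe, with filled points past a 5% false discovery rate. Black bars mark the list medians, from 0.28 for fatty acid oxidation to -0.41 for atrial markers, and diamonds the medians of HF_HF minus LF_LF in the other 20 animals, which were 0.20 and 0.25 for these lists.

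Atrial transcripts varied strongly between hearts, and their median level was lower in LF_HF than in HF_LF hearts. Ventricular and atrial muscle differ in a few abundant transcripts, so the amount of atrium kept with a heart shows in Myl7, Myl4, Sln and Nppa. Myl7, the atrial light chain, read 78.1, 2460.3 and 4938 in LF_HF hearts, against 110.4, 10270.0 and 16072 in HF_LF hearts. Both groups held hearts with almost none. The difference of -1.83 ± 1.01 did not pass (adjusted p = 0.262), nor did Nppa (-1.06, adjusted p = 0.111), Sln (-1.96, adjusted p = 0.218) or Myl4 (-1.73, adjusted p = 0.293). Nr2f1, Tbx5, Clu and Kcnj3 of the list passed as lower, so 4 of 14 tested atrial markers were lower and 0 higher. That was 28.6% called beside 11.6% of all genes, with a list median of -0.41. Summed over these 14 genes, the intensity was 13582, 28408 and 59920.5 in LF_HF hearts, against 11192.5, 82489 and 108903 in HF_LF hearts. The atrial score, the mean of the markers on the log2 scale relative to the median heart, was -1.72, -0.44 and 0.20 in LF_HF hearts, against -1.53, 0.53 and 1.06 in HF_LF hearts. Its median was 0.14 in HF_HF and -1.21 in LF_LF hearts, so the offspring of LF fed dams had the lower medians. With this score as a covariate 148 probes were higher and 190 lower, of which 146 and 187 were also called without it. Fewer cells of a type and less RNA per cell cannot be told apart in whole hearts.

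Several of the largest falls were in genes whose difference was smaller with that score in the fit. Gpx3, the plasma glutathione peroxidase, read 1049.8, 1539.5 and 2488 in LF_HF hearts, against 1103, 3246 and 6584 in HF_LF hearts. The 2 HF_LF hearts with the lowest score had the lowest Gpx3 of their group, at 1103 and 1174, and the other 8 lay above every LF_HF heart. Its difference was -0.97 (adjusted p = 0.0244) and, with the score as a covariate, -0.33 (adjusted p = 0.12). Vsig4, a complement receptor of resident macrophages, differed by -1.07 (adjusted p = 0.00301) and by -0.72 (adjusted p = 0.0467) with the covariate. Igf2 differed by -0.62 (adjusted p = 0.0263) and by -0.28 (adjusted p = 0.285). Since the score differed between the groups, atrial content and diet cannot be told apart in these values.

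Of the other marker lists, none of the tested endothelial (15), smooth muscle (12), red cell (5), adipocyte (7), pancreas (4) or liver (17) markers passed. Fibroblast markers had 2 of 16 lower and a median of -0.13, and leukocyte markers had 1 of 17 higher and 2 lower. These were 12.5% and 17.65% called, beside 11.6% of all genes. Of 13 skeletal muscle markers 1 was higher (Acta1) and 2 lower (Tnni2 and Tnnt1), 23.1% called beside 11.6% of all genes, and of 6 peripheral nerve markers 1 was higher (Mal, 0.30). Of 11 tested cardiomyocyte markers 1 was higher (Nppb) and 0 lower, 9.09% called beside 11.6% of all genes, with a median of 0.08. Their intensities summed to 160478 to 176711 in LF_HF hearts and 158571 to 174832 in HF_LF hearts. This sum holds genes near the top of the quantile-normalized scale, such as Myh6 and Actc1, so its near equality cannot measure cardiomyocyte content. The part of the atrial and fibroblast transcripts in the other results was not tested beyond the values given with the covariate.

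**Figure D4:**
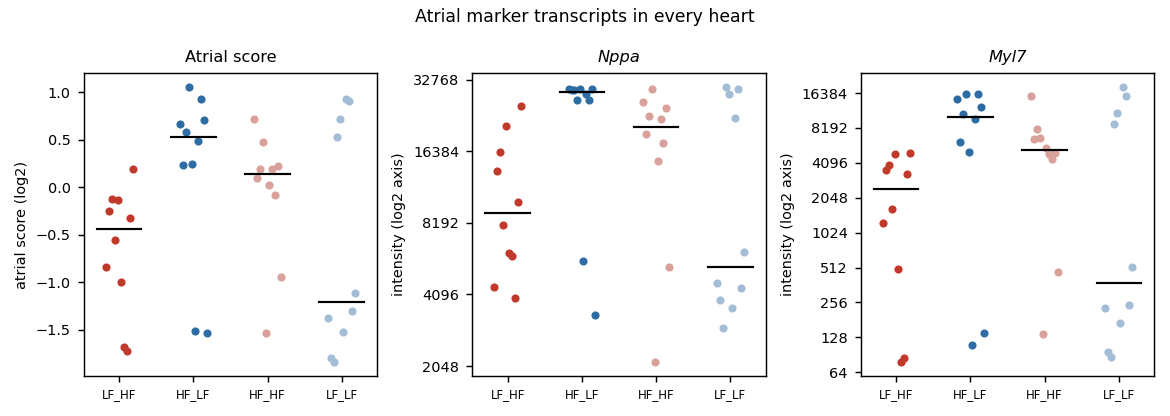
The atrial score (left, log2 units) and the intensities of Nppa and Myl7 (middle and right, log2 axes) in every heart of the 4 groups, with group medians as lines. HF_LF hearts had the highest median score (0.53) and LF_LF hearts the lowest (-1.21), with HF_HF hearts at 0.14 and LF_HF hearts at -0.44. Hearts with hardly any Myl7 occurred in every group.

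The other 20 animals allow the diets to be set against each other in a second way, since HF_HF minus LF_LF adds the maternal and the post-weaning diet where LF_HF minus HF_LF subtracts the first from the second. The comparisons share no hearts, though they share cages. In HF_HF minus LF_LF only 20 probes passed (0.158%), 15 higher (0.119%) and 5 lower (0.0395%). Of these, 18 also passed in LF_HF minus HF_LF and in the same direction, which is 90% of the 20 and 1.34% of the 1344, and 0 passed in opposite directions. The higher genes in both comparisons were Scn4b, Fbp2, Ephx2, Acot1, Acot2, Hsd17b11, Pex11a, Pdk4, Cpt2, Pfkfb2, Tgoln1, Ech1 and Chkb. The lower ones were Tnnt1, Ckb (brain creatine kinase) and Rragb. Scn4b differed by 1.19 in LF_HF minus HF_LF and by 0.97 in HF_HF minus LF_LF, Acot1 by 0.75 and 0.73, Pdk4 by 0.64 and 0.58, and Tnnt1 by -0.48 and -0.50. Without the hearts that carried another tissue no probe passed in HF_HF minus LF_LF, so none was shared.

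The medians of the gene lists stood as follows in both comparisons. Fatty acid oxidation had a median of 0.28 in LF_HF minus HF_LF and of 0.20 in HF_HF minus LF_LF, and PPAR alpha targets 0.20 and 0.17. The heat shock list had 0.23 and 0.10, and the clock list -0.15 and -0.04. The glucocorticoid-responsive list had -0.26 in LF_HF minus HF_LF and 0.03 in HF_HF minus LF_LF.

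Whether a gene differed between these comparisons is the question of the maternal diet averaged over both post-weaning diets (HF minus LF dams), tested over all 40 hearts. In that average 49 probes passed (0.388%), against 947 (7.49%) in the average of the post-weaning diet. Of the 1344 probes called in LF_HF minus HF_LF, the post-weaning average was the larger in size for 1060 (78.9%), against 62.4% of all tested probes. Their median size was 0.153 for the post-weaning and 0.087 for the maternal average. By the call of each average, 705 passed for the post-weaning diet, 44 for the maternal diet, 24 of these for both, and 619 for neither. The averages were computed partly from the hearts that chose the 1344 probes, so these counts are a description. All animals of a cage shared the maternal diet, and the fit of the averages held no term for cage. The adjusted p of an average, here and below, therefore treats cage mates as independent, and the averages were not tested over cage means. The fit did not hold the atrial score either. The median score was 0.53 (HF_LF) and 0.14 (HF_HF) with HF fed dams, and -0.44 (LF_HF) and -1.21 (LF_LF) with LF fed dams. The part of atrial content in the averages was not tested.

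Fkbp5 passed in both averages. Its medians were 142 in LF_HF, 290.1 in HF_LF, 177 in HF_HF and 162 in LF_LF hearts, so that HF_LF hearts stood highest and LF_HF hearts lowest. Its post-weaning average was -0.41 (adjusted p = 0.0029) and its maternal average 0.56 (adjusted p = 0.00173). Fam107a (maternal average 0.45, adjusted p = 0.00202), Mt1 (0.32, adjusted p = 0.00211), Klf9 (0.20, adjusted p = 0.00552), Per2 (0.36, adjusted p = 0.00173), Plin4 (0.33, adjusted p = 0.00505) and Herpud1, a stress protein of the endoplasmic reticulum (0.33, adjusted p = 0.00505), were likewise higher with HF fed dams on average. Bdnf was lower with them (-0.33, adjusted p = 0.00173). For Scn4b the maternal average was -0.11 (adjusted p = 0.695), for Acot1 -0.01 (adjusted p = 0.987) and for Pdk4 -0.03 (adjusted p = 0.963), beside post-weaning averages of 1.08, 0.74 and 0.61. The magnesium transporter gene Slc41a3 differed by 0.18 in LF_HF minus HF_LF and did not pass (adjusted p = 0.223).

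**Figure D5:**
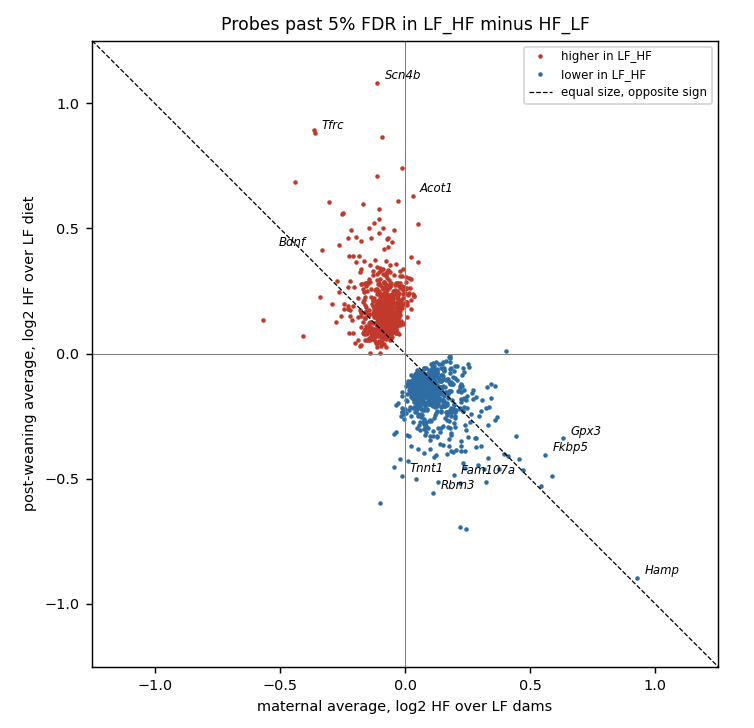
The 1344 probes called in LF_HF minus HF_LF by their maternal average (x axis, log2 HF over LF dams) and post-weaning average (y axis, log2 HF over LF diet), over 40 hearts, red where higher and blue where lower in LF_HF hearts. The dashed line marks equal sizes of opposite sign. Scn4b and Acot1 lie near the vertical line of no maternal difference, and Fkbp5 and Hamp lie towards the dashed line.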

How the data were processed

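The deposited values were intensities of 25697 probes on Illumina MouseRef-8 beadchips, read with BeadStudio, for which the sources used here give no version, and which the authors quantile-normalized over the 40 heart arrays without subtracting background. The values ran from 47.5 to 31454.1. The number of arrays limits the precision. Log2 was taken here. Probes above the median of their array on at least 20 of 40 arrays were tested (12645). The array's annotation was updated through Entrez identifiers with RefSeq names (GRCm38.p6), which gave 23978 probes 1 symbol and 1719 none.

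LF_HF and HF_LF hearts (20 arrays) were compared with limma 3.58.1 (R 4.3.3), with a variance trend and Benjamini-Hochberg adjustment over all tested probes. The scripts were tested on simulated data. Each replicate is a separate mouse, and mice shared cages. HF_HF minus LF_LF was fitted likewise, and the averages of each diet over all 40 arrays. Animal measures were compared by two-sided permutation tests with 100000 resamples, adjusted over 4 measures (SciPy 1.17.1).

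Gene lists (34 pathway and 12 marker lists) entered with the brightest tested probe of each gene and are given as counts and medians beside all genes. The named genes were the 12 largest and 5 most significant differences each way, up to 3 members of each list, a set of fixed genes and 5 shared probes each way, and 7 genes were added after their values were seen. The comparison, the lists and the named genes were chosen with earlier results of these data known. A tissue score is the mean over a marker list of each probe's log2 value minus its median over 40 hearts. Motifs were searched in the promoters of the genes that passed on the clock, glucocorticoid-responsive and oxidation lists. The plan named the list with most passing members, for which the oxidation and glucocorticoid-responsive lists tied. The promoters printed are of clock genes, chosen after their values were seen. Alternatives changed the filter, the samples, the background, the variance model, the array set, the cage, the tissue signal and the threshold.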

Additional observations from a re-analysis of the deposited data

Results flagged for a closer look

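In 6 of the 156 groups of 10 hearts checked, the extreme heart stood apart from the others by more than Dixon's 95% limit for 10 values, by its gap to the next heart as a share of the range. Chance marks about 1 group in 20, which is more than were marked here. The melanocyte gene Mlana was highest in LF_HF replicate 10 at 208.2, next to 107.8 in the second highest heart. In HF_LF hearts Kcnh2 was highest in replicate 3 at 544.6 (next 429.0) and Ccl7 in replicate 1 at 131.4 (next 104.9). Also in HF_LF hearts, Ankrd23 was lowest in replicate 8 at 559.6 (next 716.4), Per2 in replicate 7 at 581.6 (next 672.7) and Slc25a20 in replicate 4 at 3483.5 (next 4200.3). Of these hearts, HF_LF replicates 1, 7 and 8 were among those that carried transcripts of another tissue. Their part in these values was not tested.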

How the results depend on the processing

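The counts of 650 higher and 694 lower probes depended on several settings. They were 411 and 452 with no filter on dim probes, 1030 and 1107 at a false discovery rate of 10%, 131 and 168 over cage means, 273 and 190 without the hearts that carried another tissue (7 LF_HF and 5 HF_LF hearts left), and 148 and 190 with the atrial score as a covariate. Within the larger set of arrays 494 and 446 passed, and within the smaller set of 3 against 3 hearts 1 and 1. Leaving out single hearts gave 420 to 829 higher and 446 to 815 lower probes, the lowest counts without LF_HF replicate 8. Leaving out single cages gave 311 and 289 without cage 9 and 234 and 250 without cage 11, both cages of LF_HF hearts. The set of arrays as a term gave 731 and 769, and cage as a random block 532 and 554. No probe called in the comparison changed sign under any of these settings, except 4 within the smaller set. Every setting reused hearts that had chosen these probes, so a kept sign is a description and no separate test. Probes that also passed in the same direction in HF_HF minus LF_LF numbered 0 without the hearts that carried another tissue, 43 with all 40 arrays in 1 fit and 36 at 10%. The glucose difference was 27.08 mg/dl over cage means (adjusted p = 0.0952, exact permutation test) and 21.67 to 33.02 mg/dl without single animals. It missed the threshold without HF_LF replicate 1 or 5 or LF_HF replicate 4 or 7. Of genes that did not pass in the comparison as reported, Myl7, itself a marker in the atrial score, turned to 0.73 with the covariate, Scd1 to 0.56 and Myh7 to 0.11 within the smaller set, and Nr1d1 to -0.024 and Myh7 to 0.093 without the hearts that carried another tissue. The causes were not tested. No paired analysis was possible because the replicate numbers tie no LF_HF heart to an HF_LF heart, whose dams and cages differed.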
